A study of Mus musculus with 4 samples.

Results

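The isolated peaks described here are ATAC-seq peaks of HEK293 cells whose nearest other peak lay at least 200000 bp away on both sides. They were selected by position in the deposited peak list, on chromosomes 1 to 22, with gaps counted from the end of one peak to the start of the next. The first and last peak of each chromosome were left out. The rule found 680 isolated peaks among 46452 peaks on these chromosomes, or 1.46% (95% Wilson interval 1.36% to 1.58%), and among 48751 peaks in the whole list. The other 45772 peaks of these chromosomes are the group they are set beside.

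HEK293 is an established human embryonic kidney cell line that is easily transfected. ATAC-seq lets the Tn5 transposase cut and tag accessible DNA, so that sequenced fragments pile up where chromatin is open. All cells were transfected for 6 h with 1 μg/mL of a plasmid encoding a HaloTag7-dCas9 fusion protein and 25 nM of a TRAFTAC, a DNA-RNA hybrid that brings the fusion protein to the transcription factor recognised by its DNA. The labels give a scrambled TRAFTAC for 2 libraries and a TRAFTAC against NFkB for the other 2, and TNF-alpha activation for all 4. Per the treatment protocol, which all samples share, cells were then kept for 19 h with 5 ng/mL TNF-alpha and 25 μM HP14, the PROTAC against the HaloTag, or DMSO. The paper describes HP14 for cells given either TRAFTAC, and names a DMSO control with its western blot. No label names a DMSO library. All cells received 200 units/mL of DNase shortly before harvest, and libraries were made from 50000 cells with 8 cycles of PCR. The labels name the mouse as the organism, although the cell line is human and the deposited coordinates are those of GRCh38. The authors called 1 list of peaks on the 4 libraries merged, so every value below is a pooled value. No TRAFTAC effect, replicate error or test between groups can be had from it, and the depth of each library is unknown.

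Accessible sites in mammalian genomes crowd around genes, where promoters and nearby enhancers lie within a short distance of each other. Long stretches with few genes, known as gene deserts, are packed for the most part in closed, late-replicating chromatin. Single accessible sites inside such stretches can be distal enhancers, binding sites of the insulator protein CTCF, or promoters of lone genes and noncoding RNAs. Which of these an isolated peak was could not be read from the list, because an annotation and sequence of GRCh38 were not used here.

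The isolated peaks were unevenly spread over the chromosomes. Chromosome 4 held 70 of them, chromosome 3 held 68, chromosome 5 held 53 and chromosome 2 held 51. These 4 chromosomes, picked for their high counts, together carried 35.6% of the isolated peaks and 20.4% of the other peaks. An excess is built into that choice, and chromosome length enters the counts. Per Mb between the first and last peak, chromosomes 4, 3, 5 and 2 held 0.368, 0.343, 0.292 and 0.211 isolated peaks. Chromosome 13 had the highest value, 0.387. As a share of a chromosome's own peaks, isolated peaks were most frequent on chromosome 13, with 38 of 830 peaks or 4.58% (95% Wilson interval 3.35% to 6.22%). Chromosome 4 followed with 3.92% (3.12% to 4.93%) and chromosome 18 with 3.85% (2.58% to 5.71%), and the intervals of these 3 chromosomes overlapped.

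At the other end of the order stood chromosome 19, with 2 isolated peaks among 3194 or 0.0626% (0.0172% to 0.228%). Chromosome 22 had 3 among 1484 and chromosome 17 had 9 among 3167. Chromosome 1 had the most peaks of all, 4967, but only 44 isolated ones or 0.886%. The share followed the peak density, which was 7.45 peaks per Mb on chromosome 18 and 8.46 on chromosome 13 but 54.6 on chromosome 19. Over the 22 chromosomes Spearman's rho between density and share was -0.93, a description of quantities that are tied by the rule itself, since fewer peaks leave wider gaps.

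**Figure D1:**
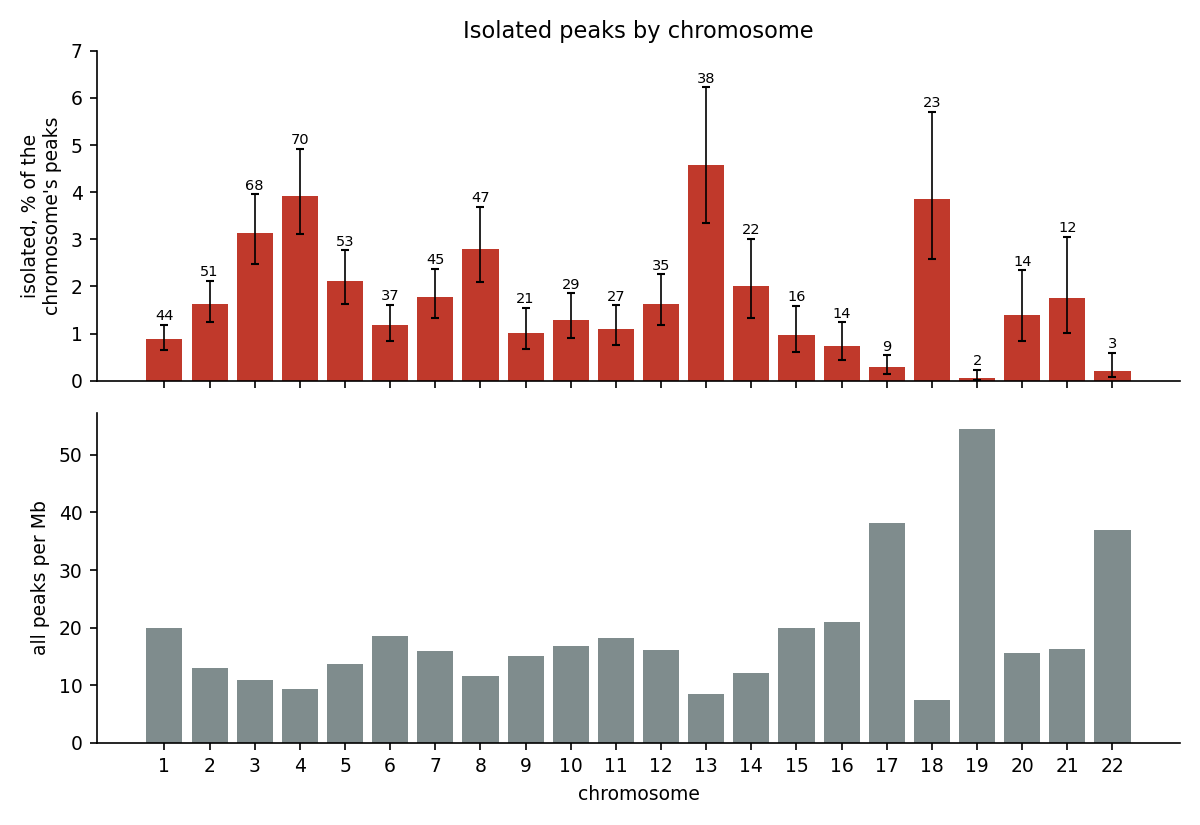
Upper panel, share of each chromosome's peaks that were isolated (%), with 95% Wilson intervals as error bars and the number of isolated peaks above each bar; lower panel, all peaks per Mb of the stretch from the first to the last peak. Chromosomes 13, 4 and 18 stand highest above and lowest below, and chromosome 19 has the reverse.

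The gaps around the isolated peaks show how sparse the chromatin was. Of 46430 gaps between neighbouring peaks, 2541 (5.47%) reached 200 kb, and these covered 1343 Mb of the 2805 Mb between the first and last peaks of the chromosomes, or 47.9%. A further 3719 peaks bordered such a gap on 1 side only. The smaller of the 2 gaps beside an isolated peak had a median of 293850 bp (quartiles 234090 and 408152 bp) and the larger a median of 574802 bp. In 122 isolated peaks both gaps reached 500 kb, and in 25 both reached 1 Mb. Within 5 Mb on either side, isolated peaks had a median of 93 other peaks, against 200 for the other peaks. This window includes the gaps that chose the members, so the count is a description only.

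Isolated peaks were often neighbours of each other. Of the 680, 358 (52.6%) stood in a run of 2 or more consecutive isolated peaks, and 322 stood alone. The share that the rule alone would give was not worked out, so these counts are a description only. There were 16 runs of 4 or more. The longest, singled out after its values were seen, had 9 isolated peaks over 4.69 Mb of chromosome 18, from 38940903 to 43628346. In order along the chromosome, their summit pileups (the number of fragments stacked at the highest point) were 46, 32, 25, 147, 92, 22, 36, 28 and 31. The peaks with 147 and 92 fragments, 733 and 668 bp wide, stood out of the run, and the other 7 all had 46 fragments or fewer. These tall peaks were neighbours, 322450 bp apart.

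**Figure D2:**
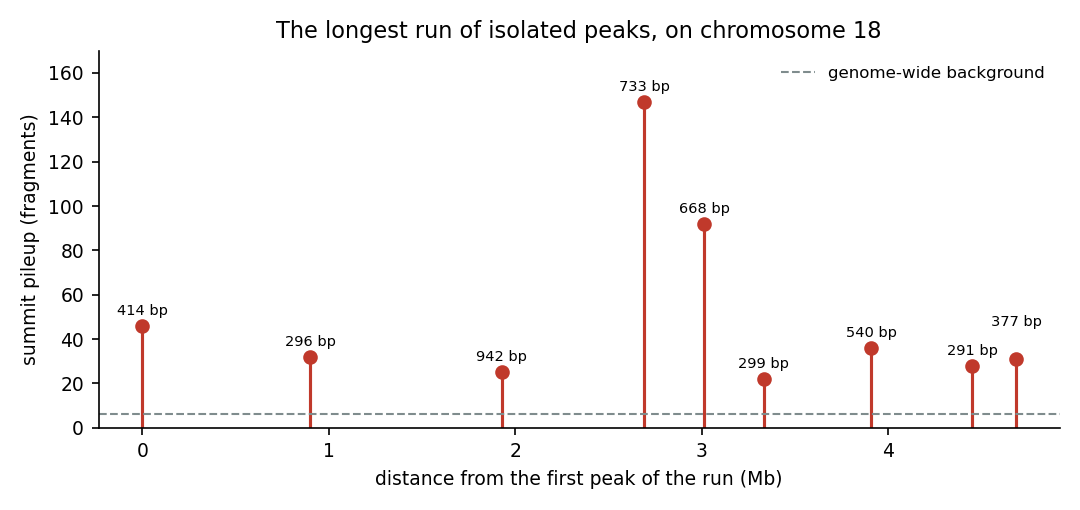
Summit pileup (fragments over the 4 merged libraries) of the 9 isolated peaks of the longest run against the distance from the first of them (Mb), with the width of each peak written above it and the genome-wide background of 6.32 fragments as a dashed line. The tallest peaks, with 147 and 92 fragments, exceed the others.

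The next longest runs held 5 peaks each, on chromosomes 3 and 4. The run on chromosome 3 stretched over 7.69 Mb, from 79297293 to 86991740, with gaps of up to 2620519 bp between its members. Its summit pileups were 50, 191, 31, 129 and 107 fragments, so that tall and low peaks were mixed along it. The run on chromosome 4 covered 2.91 Mb from 20700039 to 23614822, and its pileups were 175, 37, 156, 59 and 47 fragments.

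In signal, isolated peaks were lower than the others but stood on a lower background. Their summit pileup had a median of 44.5 fragments over the 4 libraries (95% interval from order statistics 41 to 48, quartiles 29 and 87.5), against 56 (56 to 57, quartiles 32 and 142) for the other peaks. Their local background, the number of fragments that the peak caller expects from the surroundings, had a median equal to the genome-wide background of 6.32 fragments. In 482 isolated peaks (70.9%, 95% Wilson interval 67.4% to 74.2%) the local background lay within 1% of the genome-wide one, against 34.0% (33.6% to 34.4%) of the other peaks. The background is taken from the surroundings, so its low level is tied to the rule that chose the members and is a description only. The local background exceeded the genome-wide one 10 times or more in 1 isolated peak and in 1.30% of the others. Pileup and background were recovered from the listed values, as laid out with the processing.

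The fold enrichment, the ratio of summit pileup to local background, ordered the groups the other way. Its median was 6.01 (95% interval 5.60 to 6.56, quartiles 4.10 and 9.85) in isolated peaks and 5.66 (5.60 to 5.74, quartiles 3.68 and 9.39) in the others, so the medians could not be separated by these intervals. The highest fold enrichment of an isolated peak was 20.5, and the lowest was 2.32. The −log10 q-value, which measures how far the pileup exceeds the background, had a median of 20.3 (17.8 to 23.2) in isolated peaks and 23.8 (22.9 to 23.9) in the others, and these intervals overlapped. Peaks are not replicates and the positions of the same list chose the members, so no test was made between the groups. The intervals here and below are taken over peaks as if these were independent. They hold no error between libraries, and whether they overlap is a description and not a test.

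Chromosome by chromosome the direction of the pileup was mostly kept. Among the 15 chromosomes with at least 20 isolated peaks, the median pileup was lower in isolated peaks than in the others on 13. Chromosome 13 had the lowest of these medians, 35 fragments against 52 in its other peaks. The exceptions were chromosome 9, with 80 against 55 fragments from 21 isolated peaks, and chromosome 4, with 59 against 52. The median fold enrichment was higher in isolated peaks on only 9 of the 15. With the other peaks weighted to the chromosome shares of the isolated ones, their median pileup was 54 and their median fold enrichment 5.84.

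**Figure D3:**
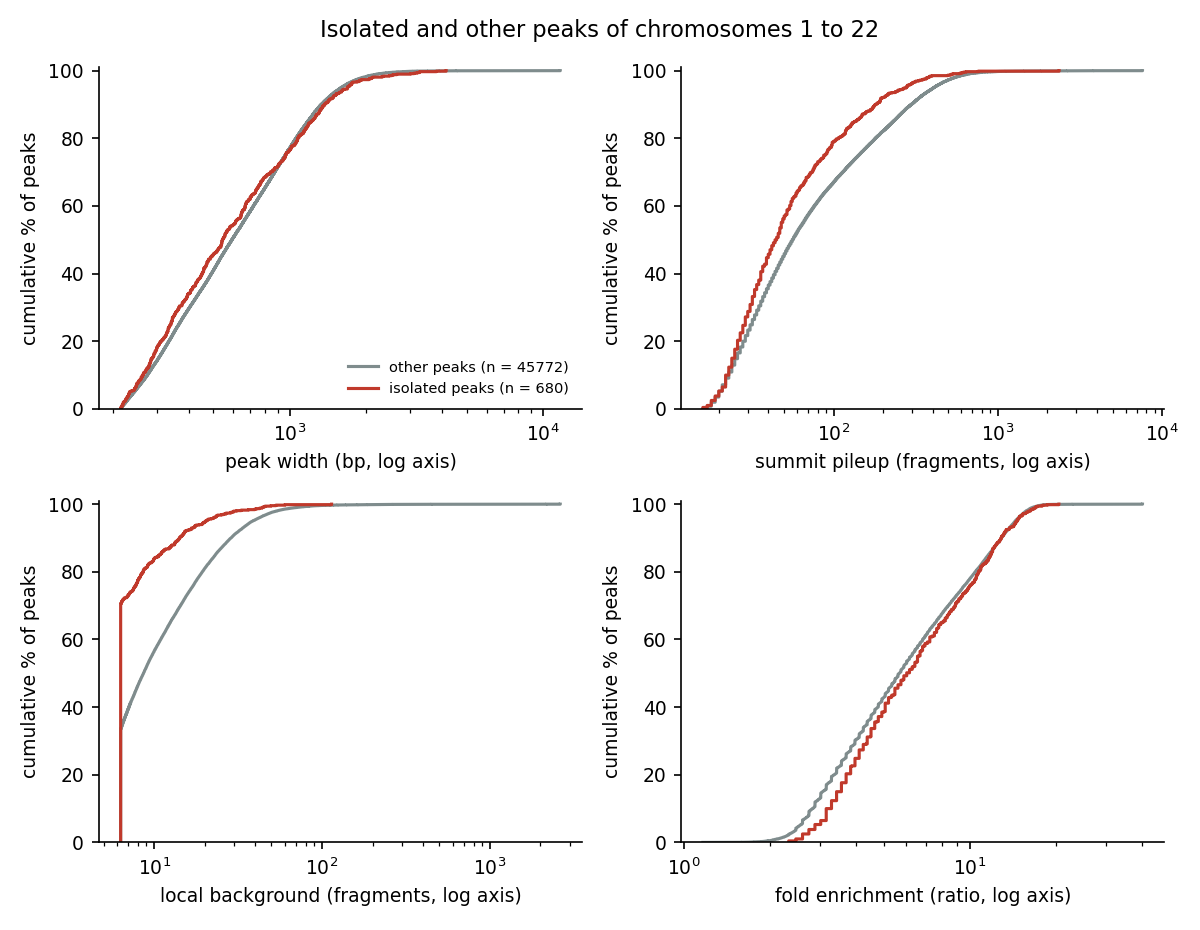
Cumulative share of peaks (%) against peak width (bp), summit pileup (fragments), local background (fragments) and fold enrichment (ratio), each on a log axis, for the 680 isolated and the 45772 other peaks of chromosomes 1 to 22. The curve of isolated peaks lies to the left for pileup and background, with 70.9% at the genome-wide background, whereas the width and fold curves run close together. The low background is tied to the rule that chose the members.

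Pileup and fold enrichment moved differently with the distance to the nearest other peak. Over all peaks with both neighbours, the median background fell from 12.8 fragments where the smaller gap was under 1 kb to 8.36 at 5 to 20 kb and to 6.32 at 50 to 100 kb. The median fold enrichment rose over the same classes from 3.83 to 6.22 and 7.24, while the median pileup was 55, 56 and 57 fragments. Beyond 100 kb the background stayed at its floor and the pileup was lower, with medians of 49 fragments at 100 to 200 kb, 46 (95% interval 41 to 50) at 200 to 500 kb and 38.5 (35 to 47) at 500 kb or more. The median fold enrichment was 6.57, 6.23 and 5.26 in these classes. The fold enrichment of the list was thus highest at intermediate distances. It rose below 100 kb while the median background fell and the median pileup stayed level. The ratio is built from pileup and background, and the background is taken from the surroundings, so these trends are tied to the gap classes. Their cause was not tested.

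**Figure D4:**
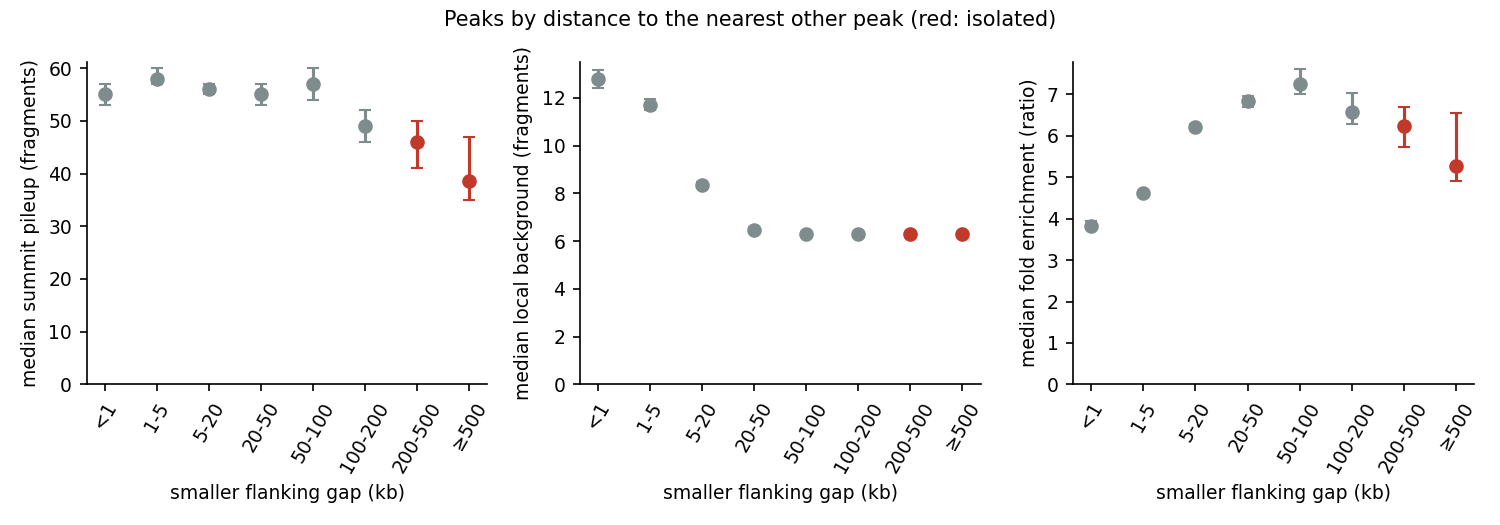
Median summit pileup (fragments), local background (fragments) and fold enrichment (ratio) of peaks of chromosomes 1 to 22 in classes of the smaller flanking gap (kb), with 95% order-statistic intervals; red points are the classes of isolated peaks. Pileup is level up to 100 kb and lower beyond, background falls to 6.32 fragments, and fold enrichment is highest at 50 to 100 kb with 7.24.

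Peaks with a gap of 200 kb or more on 1 side only lay between in pileup but not in fold enrichment. Their median pileup was 49 fragments (95% interval 47 to 51), against 57 for peaks with no such gap and 44.5 for isolated peaks. Their median fold enrichment was 6.29 (6.15 to 6.47), against 5.60 (5.58 to 5.65) with no such gap and 6.01 (5.60 to 6.56) for isolated peaks. A −log10 q-value of at least 100 was reached by 21.8% of peaks with no such gap (21.4% to 22.2%), by 20.4% (19.1% to 21.7%) with 1 and by 14.3% (11.8% to 17.1%) with 2. Among isolated peaks with both gaps of 500 kb or more, the share was 6.56% (3.36% to 12.4%). The intervals of peaks with such a gap on both sides and on 1 side did not overlap, whereas those of peaks with 1 and with none overlapped. At the weak end, 10.0% of isolated peaks (7.97% to 12.5%) and 13.4% of the others (13.1% to 13.7%) had a −log10 q-value under 5.

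Within the 680 isolated peaks, the smaller gap and the pileup were only weakly related, with a Spearman's rho of -0.10 across peaks that share the same 4 libraries. The 25 peaks with both gaps of at least 1 Mb covered a wide range of heights. The most remote isolated peak lay on chromosome 1 from 190477920 to 190479250, with 3796918 bp free of peaks before it and 2329214 bp after it. It was 1331 bp wide, with a summit of 51 fragments and a fold enrichment of 6.78. The peak on chromosome 14 from 41604956 to 41607299 came next, with gaps of 2171672 and 2709715 bp, a width of 2344 bp and 61 fragments. A peak on chromosome 3 from 84958564 to 84959700, inside the run of 5 named above, had gaps of 2620519 and 2030602 bp and the tallest summit of the 5 most remote peaks, 129 fragments at a fold enrichment of 13.4. The remaining members of these 5 were narrow, 287 bp wide with 29 fragments on chromosome 4 from 33924324 to 33924610, and 395 bp wide with 48 fragments on chromosome 13 from 69565330 to 69565724. The most remote sites thus included both broad and narrow peaks.

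**Figure D5:**
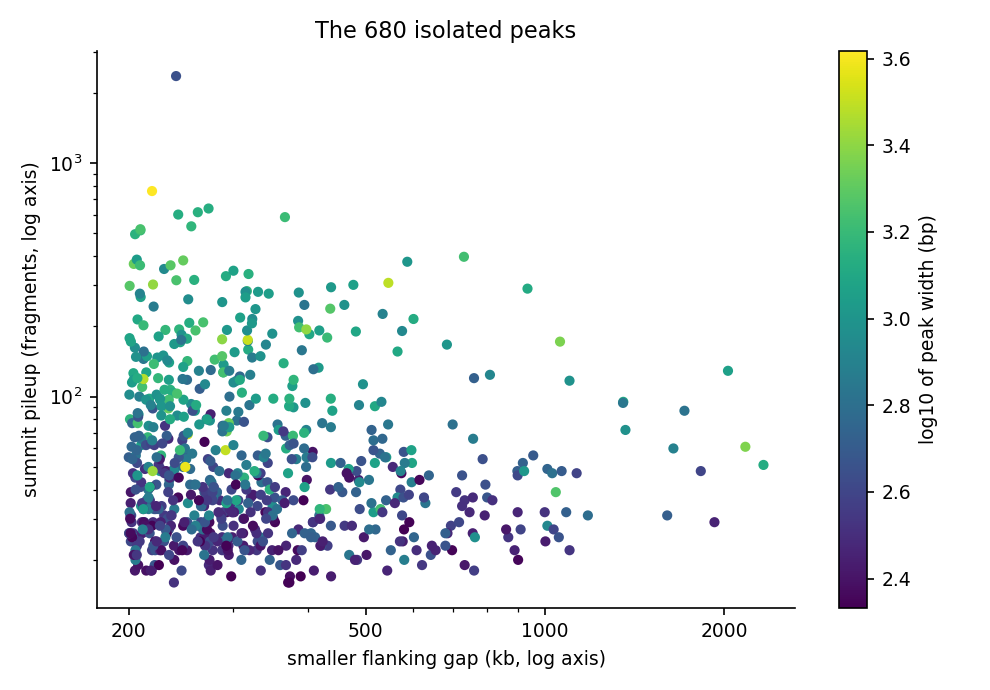
Summit pileup (fragments, log axis) of each of the 680 isolated peaks against its smaller flanking gap (kb, log axis), coloured by the log10 of its width in bp. Most points lie between 20 and 200 fragments, taller peaks are mostly wider, and 1 narrow peak stands apart with 2358 fragments.

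The width of isolated peaks had a median of 543 bp (95% interval 508 to 582 bp, quartiles 340 and 963 bp), against 591 bp (586 to 597 bp, quartiles 365 and 962 bp) for the other peaks. Peaks under 300 bp made up 18.2% of the isolated (15.5% to 21.3%) and 14.3% of the other peaks (14.0% to 14.6%). Peaks of 1000 to 2000 bp were about as frequent in both groups, with 20.7% (17.9% to 23.9%) and 21.2% (20.8% to 21.5%). Widths of 2000 bp or more occurred in 18 isolated peaks, or 2.65% (1.68% to 4.15%), and in 1.76% of the others. Peaks of 600 to 1000 bp made up 22.1% of the isolated (19.1% to 25.3%) and 26.4% of the other peaks (26.0% to 26.8%). The intervals of the groups did not overlap for peaks under 300 bp and for those of 600 to 1000 bp, and overlapped for the broader peaks. In both groups taller peaks were wider, with a Spearman's rho between width and pileup of 0.73 in each.

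At a given height, isolated peaks of 60 to 240 fragments were the wider ones. With 60 to 120 fragments at the summit, the median width was 898 bp (95% interval 769 to 989 bp) in 127 isolated peaks and 674 bp (667 to 682 bp) in the others. With 120 to 240 fragments it was 1149 bp (1023 to 1240 bp) in 77 isolated peaks, against 984 bp (975 to 997 bp). With 240 or more, the 42 isolated peaks had a median of 1330 bp (1105 to 1461 bp), against 1147 bp (1135 to 1157 bp), and these intervals overlapped. Below 60 fragments the intervals overlapped too, with 319 and 327 bp under 30 fragments and 464 and 456 bp at 30 to 60. The isolated peaks had the lower median background in each class from 60 fragments up. At 60 to 120 fragments it was 6.67 in isolated and 9.91 in other peaks, and at 120 to 240 fragments it was 12.6 and 15.9. At 240 or more, where the width intervals overlapped, the median background was 23.7 and 29.3. Its part in the widths was not tested.

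A −log10 q-value of at least 100 marked 97 of the isolated peaks. Their summit pileups had a median of 214 fragments (lowest 129, highest 2358) and their widths a median of 1139 bp, and 65 of them were at least 1000 bp wide. Only 1 of the 97 was narrower than 600 bp. That peak, on chromosome 3 from 93470358 to 93470806, was 449 bp wide and had the highest pileup (2358 fragments), −log10 q-value (2125) and fold enrichment (20.5) of all isolated peaks. Its local background of 114 fragments was also the highest, 18.1 times the genome-wide one. It closed a run of 4 isolated peaks, and the 3 before it had 26, 26 and 23 fragments, so that neighbours in this run differed widely. Whether the run lies in centromeric or repeated sequence was not tested, and neither was whether its tall peak marks open chromatin. The gap before the tall peak measured 1919446 bp.

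The isolated peaks that followed in −log10 q-value were broad. A peak on chromosome 7 from 56370490 to 56374640 was the widest of all, 4151 bp, with 759 fragments and a fold enrichment of 12.4. On chromosome 8 a peak from 25458071 to 25459433 had 639 fragments over 1363 bp. A peak on chromosome 1 from 186374744 to 186376131 had 616 fragments over 1388 bp, and one on chromosome 3 from 31531956 to 31533576 had 587 fragments over 1621 bp. The fold enrichments of these last 3 were 11.8, 13.4 and 13.1. In width and fold they resembled the median strong isolated peak, while their pileups were more than double its 214 fragments.

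Width and height came apart in some of the broadest isolated peaks. The second widest, on chromosome 4 from 188444809 to 188448605, measured 3797 bp, yet its summit reached only 50 fragments, at a fold enrichment of 6.97. The third, on chromosome 2 from 132668363 to 132671629, measured 3267 bp with 69 fragments and a fold enrichment of 4.73. The 18 isolated peaks of 2000 bp or more had a median pileup of 145.5 fragments, against 195 in the 804 other peaks of that width. Their median fold enrichments were 7.75 and 7.01. A fold enrichment under 5 was found in 2 of the 18 (11.1%, 95% Wilson interval 3.10% to 32.8%) and in 17.5% (15.1% to 20.3%) of the 804.

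At the weak end, 68 isolated peaks had a −log10 q-value under 5, with a median width of 290.5 bp and between 16 and 22 fragments at the summit. A −log10 q-value under 2 was found in 7 isolated peaks (1.03%, 95% Wilson interval 0.50% to 2.11%) and in 1.18% of the others. The lowest value, 1.54, was shared by 3 isolated peaks with 16 fragments each and a fold enrichment of 2.32. They lay on chromosome 14 from 80570386 to 80570603, on chromosome 21 from 12273557 to 12273883 and on chromosome 8 from 75780866 to 75781085. Their widths were 218, 327 and 220 bp, where the narrowest width in the list was 215 bp.

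Just inside the threshold, the smaller gap was 200104 bp for a peak on chromosome 10 from 76303811 to 76304333 with 55 fragments, 200403 bp for a peak on chromosome 8 from 113233964 to 113234392 with 26 fragments, and 200481 bp for a peak on chromosome 13 from 86857163 to 86857421 with 26 fragments. Just outside it, the smaller gap was 199976 bp for a peak on chromosome 1 from 18109944 to 18110662 with 56 fragments, 199817 bp for a peak on chromosome 10 from 20878440 to 20878796 with 24 fragments, and 199661 bp for a peak on chromosome 4 from 65998519 to 65999302 with 36 fragments. Their fold enrichments were 7.65, 3.69 and 3.69 inside and 5.45, 3.42 and 5.06 outside.

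A large gap can span a centromere or another stretch that short reads cannot be placed in, and it need not be the largest gap of its chromosome. Of the 680 isolated peaks, 11 bordered the largest gap of their chromosome. The medians of the other 669 were 544 bp for the width, 6.01 for the fold enrichment and 45 fragments for the pileup. Leaving out the 11 does not remove all peaks beside such stretches, so these medians do not show how much such stretches matter. The largest gap beside an isolated peak, 16035971 bp, followed a peak of 274 bp and 18 fragments on chromosome 9, singled out after its values were seen. How much of any gap consists of sequence to which reads could not be assigned was not analysed here.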

How the data were processed

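ATAC-seq was performed on 4 libraries of HEK293 cells. Per the labels, the authors used Trimmomatic, Bowtie2 with GRCh38.p10, Picard and MACS2, the latter with paired-end input according to the methods, which also describe a removal of blacklisted regions. The list analysed here came from a single call over the merged libraries. For the summit of each peak, the fold enrichment as deposited is a linear ratio of pileup to local background calculated by MACS2. The authors' list likewise gives −log10 p-values and −log10 q-values as MACS2 calculated them at the summit, in addition to positions. Columns of single samples number 0. A score column was not used.

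Positions were converted to 1-based coordinates, and gaps were counted from the end of one peak to the start of the next. Summit pileup and local background were recovered by solving for a whole pileup that matched both listed values, taking the fold enrichment as a ratio with 1 added to both terms and the −log10 p-value as a Poisson tail, to within 0.001. A solution was found for all 680 isolated peaks and for 45760 of the 45772 others, and the search was tested on simulated data. Medians carry 95% order-statistic intervals and shares 95% Wilson intervals. Python 3.11.15, numpy 2.4.6, pandas 2.3.3, scipy 1.17.1 and matplotlib 3.10.9 were used.

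The members and the regions to be named were chosen with earlier results of these data known. Named regions were the 5 isolated peaks of highest −log10 q-value, the 5 with the largest smaller gap, the 3 widest, the 3 of lowest −log10 q-value, and the 3 on each side of the threshold, besides runs of isolated peaks that were picked after their values were seen. Planned analyses of genes, long neuronal genes, motifs and sequence were not run, since they need a genome of the same build.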

Additional observations from a re-analysis of the deposited data

Results flagged for a closer look

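Chromosome X was outside the rule. By the same gap of 200000 bp, 55 of its 1877 peaks were isolated, or 2.93% (95% Wilson interval 2.26% to 3.79%). They were picked out because these peaks enter no comparison above, and their number alone says nothing about them. The list pools all libraries, so this could not be set beside control samples alone. These peaks had a median width of 445 bp, a median summit pileup of 33 fragments and a median fold enrichment of 4.65, against 49 fragments and 5.10 in the other peaks of chromosome X. As on chromosomes 1 to 22, the pileup was lower in isolated peaks and the median background, 6.32 fragments, lay at the genome-wide one. The median fold enrichment was lower in isolated peaks as well, whereas the medians on chromosomes 1 to 22 together could not be separated by their intervals. Neither difference was tested.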

How the results depend on the processing

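Of 57 values under alternatives, 38 stayed within the 95% interval of the reported value, or within 1.5 times for the number of peaks. The gap that counts as isolated sets the number, with 2036 peaks at 100000 bp and 122 at 500000 bp. At these gaps the share on chromosome 4 was 7.81% and 18.03%, and at 500000 bp the median fold enrichment was 5.26 and the median −log10 q-value 15.7. Limiting the members to −log10 q-values of 5 and above, the medians were 596 bp, 6.58 and 23.8 for width, fold enrichment and −log10 q-value, and with neighbours restricted as well the last was 23.2, since both restrictions remove weak peaks. Weighting chromosomes gave the other peaks a median fold enrichment of 5.84. Within classes of the −log10 q-value, isolated peaks were wider by 134.5 bp at 50 to 100 and by 41 bp at 100 or more, where over all peaks the difference was -48 bp; in the first of these classes the fold enrichment was higher by 1.66. The difference in median pileup was -1, -2, -3, -21 and -66 fragments in the classes 0 to 5, 5 to 10, 10 to 20, 50 to 100 and 100 or more, against -11.5 over all peaks. At 1 q-value, a lower background by construction goes with a lower pileup and a higher fold enrichment. Chosen after seeing the data were the classes for the pileup, the removal of peaks beside the largest gap, and the limit on the background of 10 times the genome-wide one. Measuring between summits, these removals and keeping first and last peaks moved no value outside these bounds. The alternatives for transcription starts and motif matches, and leaving out single replicates, could not be run. No paired analysis was possible because 1 merged call set stands for all 4 libraries. Depth limits the weak end, where the lowest summit had 16 fragments over the 4 libraries.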
